A study of Mus musculus with 16 samples.

Results

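The zinc handling genes of the islet were taken as a fixed set of 8 genes, Slc30a8, Slc30a5, Slc30a7, Slc39a6, Slc39a7, Slc39a14, Mt1 and Mt2, chosen by gene name. All 8 were found once among the 54146 genes of the files, and all 8 were among the 15204 genes tested. They were measured by RNA-seq of whole islets from both sexes of the 8 founder DO strains, which are 129S1_SvImJ (129), A_J (AJ), C57BL/6J (B6), CAST_EiJ (CAST), NOD_ShiLtJ (NOD), NZO_HlLtJ (NZO), PWK_PhJ (PWK) and WSB_EiJ (WSB). All groups share an age of 26 weeks and a high-fat diet, so no group on another diet or at another age was compared. The 16 samples hold 91 libraries, with 10 of 129 (5 labelled female and 5 male), 14 of AJ (7 and 7), 18 of B6 (9 and 9), 14 of CAST (6 and 8), 10 of NOD (5 and 5), 4 of NZO (3 and 1), 5 of PWK (1 and 4) and 16 of WSB (9 and 7). The labels do not say that each library is a different mouse, so p-values measure the spread between libraries. The inbred strains carry no transgene in the labels, and each strain is 1 genotype.

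Zinc is stored in the insulin granules of beta cells, where insulin hexamers crystallise around it, and it leaves the cell with insulin. Transporters of the Slc30 (ZnT) family move zinc out of the cytosol, into organelles or out of the cell, and those of the Slc39 (ZIP) family move it into the cytosol. Slc30a8 encodes ZnT8, the transporter of the granule membrane and a known type 2 diabetes gene. The products of Slc30a5 and Slc30a7 load zinc into the early secretory pathway. Slc39a6 and Slc39a14 encode importers at the cell surface, and Slc39a7 encodes an importer that releases zinc from the endoplasmic reticulum. Mt1 and Mt2 encode metallothioneins, small cysteine-rich proteins that bind zinc in the cytosol and whose transcription is raised by metals through the factor Mtf1.

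A library held between 16928552 and 35196145 expected counts in total (median 27485367), and 3 counts corresponded to between 0.0852 and 0.177 CPM. The median expected count per library of the 8 genes lay between 834 for Slc39a14 and 21555 for Slc30a8, so depth did not limit their detection. All 10 beta cell markers were measured, with a summed level between 307283 TPM in PWK and 527392 TPM in AJ. Other cell types were present in strain-dependent amounts. The summed level of 11 acinar markers (digestive enzyme genes of the exocrine pancreas) averaged 8651 TPM in AJ and 145078 TPM in NOD and ran from 1993 to 370552 TPM over the libraries. The 15 leukocyte markers averaged 642 TPM in NOD (from 42.2 to 2106 TPM) and between 42.3 and 117 TPM in the other strains. In 12 libraries, of which 6 are 129, 4 are WSB and 2 are NOD, the counts of Xist and of Y-linked genes went against the sex label, and sex is given here as labelled. The libraries of 129, NOD, NZO and PWK carry the numbers from 66 to 100 in their names and those of AJ, B6, CAST and WSB the numbers up to 65, so anything that follows this numbering cannot be told apart from strain between these sets.

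On the TPM scale, which divides by length and so permits comparison between genes, the 8 genes spanned a wide range. Mt1 was the most abundant at 985 TPM ± 364 (SD, n = 91 libraries), which placed it at rank 46 of the 15204 genes tested. Mt2 followed at 670 TPM ± 289. Slc30a8 stood at 470 TPM ± 147, above 99.4% of the genes tested. Among the other transporters Slc39a7 was the highest at 119 TPM ± 26.2, and Slc30a5 had 29.4 TPM ± 7.38. Slc39a6 (14.0 TPM ± 3.64), Slc30a7 (9.66 TPM ± 2.79) and Slc39a14 (9.39 TPM ± 2.19) lay near the middle of all genes, with Slc39a14 above 55% of them. None of the 8 was at 0 in any library.

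A strain effect was called for all 8 genes (adjusted p under 0.05 over all genes tested, quasi-likelihood test of edgeR), but 97.4% of the genes tested had one, so the call itself does not set them apart. Adjusted p-values were 7.16e-18 for Slc39a6, 2.36e-15 for Slc30a8, 2.09e-07 for Slc39a7, 3.41e-07 for Slc39a14, 1.11e-05 for Slc30a5, 0.0013 for Mt2, 0.0107 for Mt1 and 0.029 for Slc30a7. The highest strain mean exceeded the lowest by 2.55-fold for Mt2, 2.49-fold for Slc30a8 and 2.15-fold for Mt1, by 1.67-fold for Slc39a6, 1.59-fold for Slc39a14, 1.42-fold for Slc30a5 and 1.37-fold for Slc39a7, and by 1.23-fold for Slc30a7. These means are normalized counts, in which each library's counts are scaled to the average effective library size. The strain effect of Slc30a7 was lost in 10 of 25 alternatives, with adjusted p-values up to 0.371. Among these were the fits without replicate 1 or replicate 4 of NZO (adjusted p = 0.0592 and 0.0553), without the 10 NOD libraries (adjusted p = 0.234), and with each of the acinar, leukocyte and beta cell covariates (adjusted p = 0.0924, 0.106 and 0.113). When the libraries of each of the 16 samples (1 per strain and sex) were summed, Slc30a7 (adjusted p = 0.0639), Mt1 (adjusted p = 0.196) and Mt2 (adjusted p = 0.103) had no strain effect that passed the test, and the other 5 genes did.

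**Figure D1:**
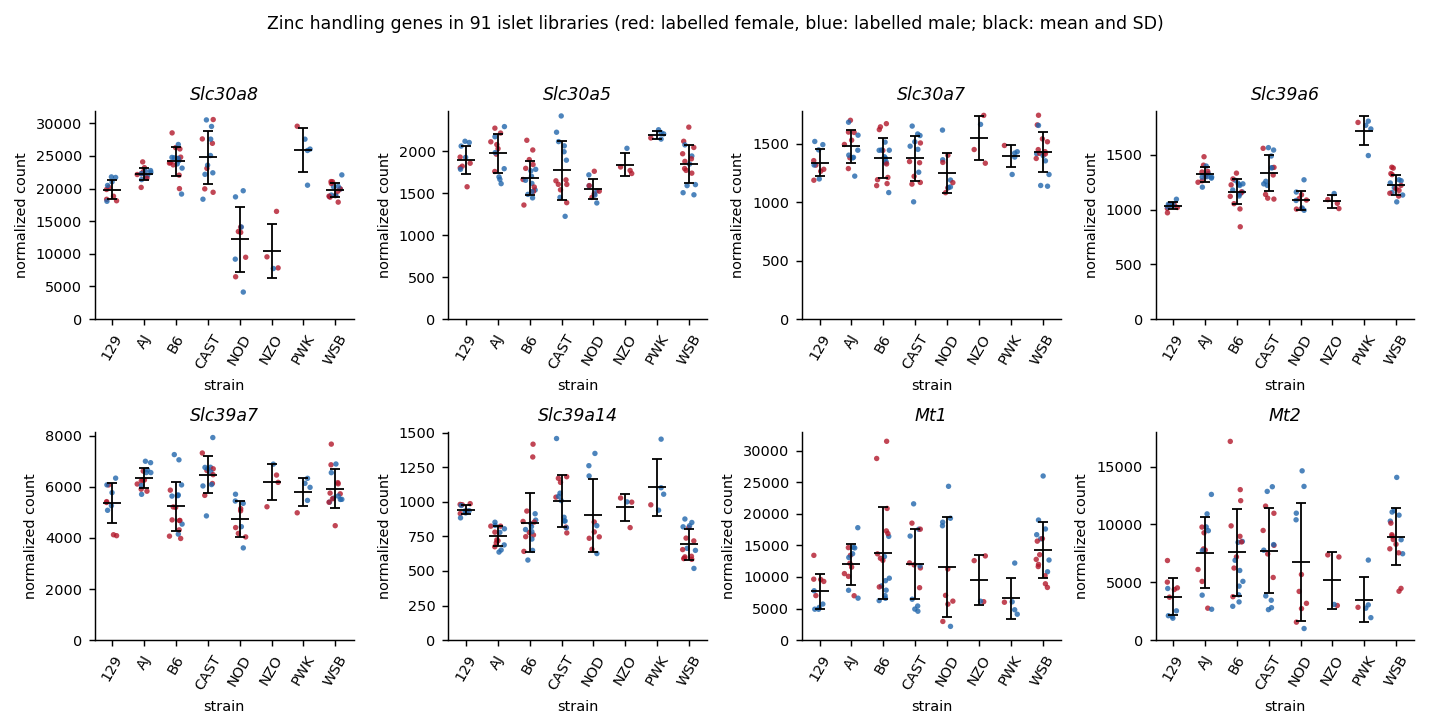
Normalized counts of the 8 zinc handling genes (vertical axes, linear, from 0) in the 91 libraries by strain (horizontal axes). Points are libraries, red where labelled female and blue where labelled male, and black marks the mean and SD of each strain. Slc30a8 is low in NOD and NZO, Slc39a6 is high in PWK, and the points of Mt1 and Mt2 spread widely within nearly every strain.

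Each strain was then compared with the unweighted mean of the other 7 in the same fit, which gives 64 contrasts over the 8 genes. Of these 31 were called, 16 higher and 15 lower, and 0 of them reached a log2 fold change of 1 in either direction. NOD had the most members lower. In NOD 5 of the 8 genes were lower and 0 higher, where 29.5% of all genes tested were lower and 35.8% higher. In NZO 2 were lower and 0 higher (14.2% and 20% of all genes). In PWK 4 were higher and 1 lower (23.2% and 21.8% of all genes), and in CAST 4 were higher and 0 lower (26.7% and 31%). AJ had 4 higher and 1 lower, against 24.9% and 32.1% of all genes. B6 had 2 higher and 3 lower, against 25.6% and 27.6%. In 129, 2 were lower and 0 higher, against 21% and 27.9%, and in WSB 2 were higher and 1 lower, against 26.6% and 29.7%. The median log2 fold change of the 8 genes was -0.19 in NOD, where that of all genes was 0.03, and 0.20 in CAST, where that of all genes was -0.01. With so many genes called in every strain, counts over 8 genes are a description only. In sums of the libraries of each sample 14 of the 31 calls were lost, which are those of AJ for Slc30a8, Slc30a5, Slc39a6 and Slc39a7, of B6 for Slc30a5, Slc39a6, Slc39a7 and Mt1, of CAST for Slc39a6 and Slc39a14, of WSB for Mt1 and Mt2, and of 129 and PWK for Mt2. On log2(TPM + 1) the median of all genes itself moved to 0.18 in 129, -0.18 in CAST, -0.12 in WSB, -0.11 in B6 and 0.10 in PWK, and the share of calls that were higher went from 57.1% to 83.2% in 129, from 43.6% to 64% in AJ, from 48.1% to 17.6% in B6, from 46.3% to 12.5% in CAST, from 51.5% to 69.5% in PWK and from 47.2% to 19.8% in WSB. Values on that scale are to be read relative to these shifts.

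**Figure D2:**
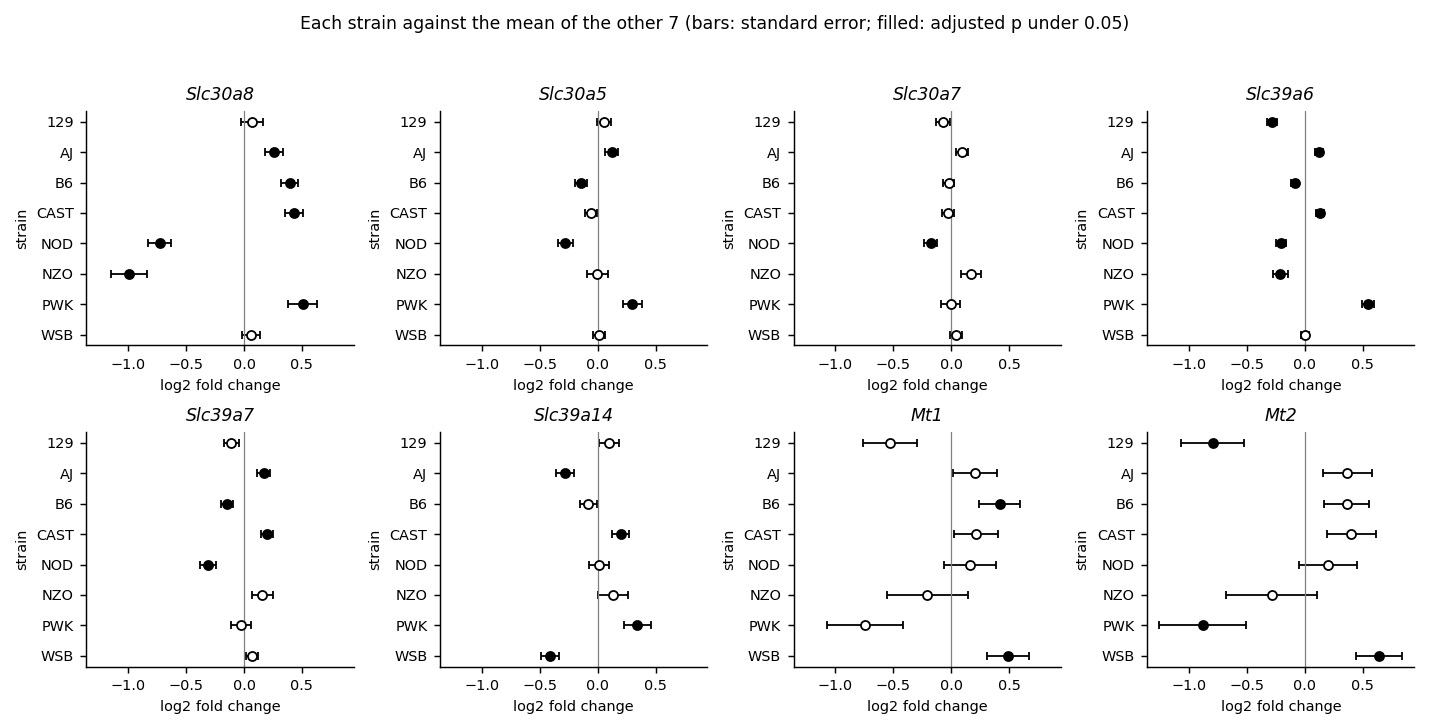
Log2 fold change of each strain against the mean of the other 7 (horizontal axes) for each of the 8 genes, with strains on the vertical axes, bars for the standard error and filled points for an adjusted p under 0.05. The values of Slc30a8 run from -0.99 in NZO to 0.50 in PWK, those of Slc30a7 lie close to 0, and the bars of Mt1 and Mt2 are the widest.

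Slc30a8 (chromosome 15 of GRCm38, 52295553 to 52335798, plus strand) was low in the NZO and NOD strains, both known for diabetes, and high in PWK, CAST and B6. The 4 NZO libraries had 16496, 9526.5, 7834 and 7736 normalized counts. The 10 NOD libraries ran from 4130 over a median of 13338 to 19657. In PWK the 5 libraries had 27560, 26046, 25831, 20509 and 29550, in CAST they ran from 18362 (median 24318) to 30569, and in B6 from 19151 (median 24435) to 28526. AJ libraries lay between 20169 and 24081 (median 22270), those of 129 between 18047 and 21779 (median 20028) and those of WSB between 17913 and 22088 (median 19744). All 4 NZO libraries and 8 of the 10 NOD libraries were below the lowest library of the other 6 strains. In the order of strain means, PWK, CAST, B6, AJ, 129, WSB, NOD and NZO, neighbours differed by more than the larger of their SDs at 2 of 7 steps, AJ over 129 and WSB over NOD. The means of NOD (12249 ± 4971, SD, n = 10) and NZO (10398 ± 4147, SD, n = 4) did not differ beyond their spread.

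Against the mean of the other strains, Slc30a8 was lower in NZO by a log2 fold change of -0.99 (SE 0.16, adjusted p = 1.79e-07) and in NOD by -0.73 (SE 0.10, adjusted p = 5.98e-10). It was higher in PWK by 0.50 (SE 0.12, adjusted p = 0.000372), in CAST by 0.43 (SE 0.08, adjusted p = 2.09e-06), in B6 by 0.39 (SE 0.07, adjusted p = 2.75e-06) and in AJ by 0.26 (SE 0.08, adjusted p = 0.00461). The values in 129 (0.07) and WSB (0.06) did not pass the test. The AJ call was lost in 5 of 25 alternatives, among them the acinar covariate (0.19, adjusted p = 0.121), and in the fits of AJ, B6, CAST and WSB alone, against 3 strains, its direction turned (-0.0408 with the range of library numbers, up to 32 or from 34 to 65, as a term, adjusted p = 0.463, and -0.0350 without it, adjusted p = 0.552). The CAST call was lost on log2(TPM + 1) (0.24, adjusted p = 0.0615). On the TPM scale the order of the extremes was alike, from 243 TPM ± 110 in NZO and 262 TPM ± 88.3 in NOD to 656 TPM ± 206 in PWK. The NZO value lay between -0.71 and -1.30 in all alternatives run and passed the test in each of them.

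Because islets are mixtures, a lower transcript level in a bulk sample can come from fewer cells of a type or from less RNA per cell, and the 2 cannot be told apart here. The level of Slc30a8 was therefore set beside the 10 beta cell markers. In NOD 7 of the 10 markers were lower and 0 higher, where 29.5% and 35.8% of all genes were, and their median log2 fold change was -0.39, where that of all genes was 0.03. Examples are Iapp (islet amyloid polypeptide, -0.63, SE 0.08), Pcsk1 (a prohormone convertase, -0.60, SE 0.08), Pdx1 (a beta cell transcription factor, -0.51, SE 0.13) and Ins2 (insulin, -0.34, SE 0.13). In NZO 4 of the 10 were lower and 1 higher, where 14.2% and 20% of all genes were. Mafa, a transcription factor of mature beta cells (-1.14, SE 0.18), and Slc2a2, the glucose transporter (-1.03, SE 0.16), were lower by about as much as Slc30a8, while Iapp was higher (0.42, SE 0.11) and Ins1 (0.18, SE 0.15) and Ins2 (0.13, SE 0.18) did not pass the test. In PWK, where Slc30a8 was highest, Ins2 (-0.80, SE 0.18), Iapp (-0.78, SE 0.11) and Ucn3 (-0.90, SE 0.15) were lower, and G6pc2 (0.53, SE 0.15), Pcsk1 (0.36, SE 0.10) and Nkx6-1 (0.35, SE 0.12) were higher. With the beta cell marker score as a covariate, the log2 fold change of Slc30a8 was -0.71 in NZO (adjusted p = 1.48e-07), -0.38 in NOD (adjusted p = 4.53e-05) and 0.61 in PWK (adjusted p = 4.98e-09), and that in AJ was 0.03 (adjusted p = 0.715).

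**Figure D3:**
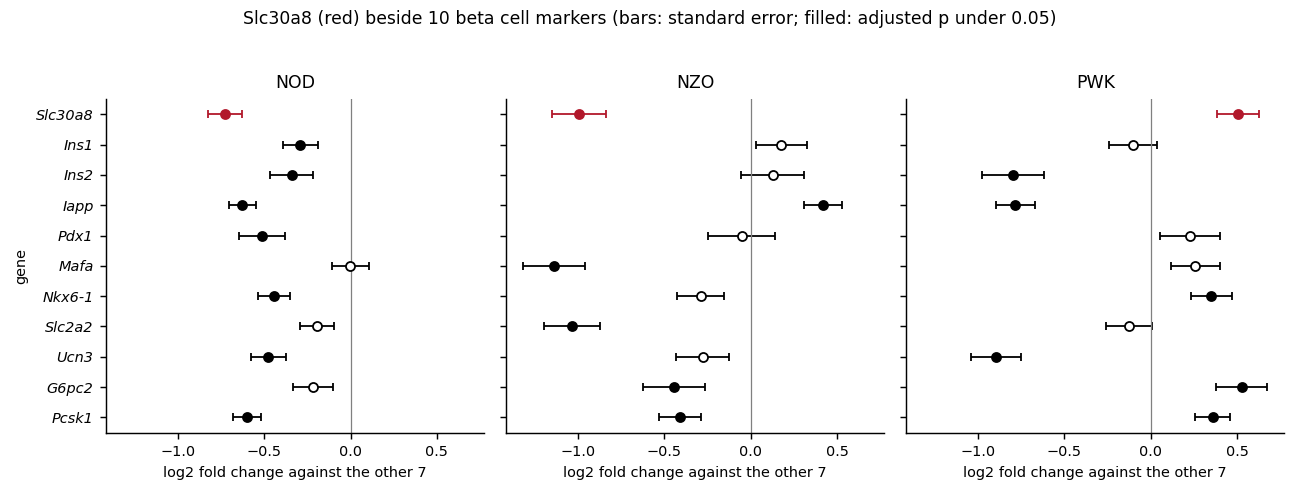
Log2 fold change of Slc30a8 (red) and of 10 beta cell markers (black) in NOD, NZO and PWK, each against the other 7 strains, with standard errors and filled points for an adjusted p under 0.05. Slc30a8 is the lowest of the 11 genes in NOD (-0.73), lies beside Mafa and Slc2a2 in NZO (-0.99), and is on the side opposite to Ins2, Iapp and Ucn3 in PWK (0.50).

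Of the relations of Slc30a8 with the acinar and leukocyte scores inside 6 strains, 2 passed the test, that with the leukocyte score in NOD and that with the acinar score in AJ. Over the 10 NOD libraries its correlation with the leukocyte score (the mean log2 level of the 15 markers) was r = -0.76 (Pearson, permutation p = 0.00994, adjusted p = 0.0362) and rho = -0.81 (Spearman, permutation p = 0.00726, adjusted p = 0.0322), one of 102 relations tested, and r was -0.63 without the 2 libraries farthest from the median score. Over the 14 AJ libraries its correlation with the acinar score was r = -0.71 (permutation p = 0.00295, adjusted p = 0.0141) and rho = -0.77 (permutation p = 0.00193, adjusted p = 0.0114), with r = -0.73 without the 2 farthest libraries. Among the NOD libraries, replicate 7 had the lowest Slc30a8 (4130) and the highest summed leukocyte level (2106 TPM). Replicate 6 of NOD had the highest Slc30a8 (19657) with 67.6 TPM of leukocyte markers. With the leukocyte score as a covariate the NOD value was -0.37 and did not pass the test (adjusted p = 0.0717). This covariate also lowered the share of all genes called in NOD, in either direction, from 65.3% to 15.9%, which applies to every NOD call given with it. In NZO the leukocyte markers summed to between 59.8 and 170 TPM, and the library with the highest sum had the lowest Slc30a8 of the strain (7736). The NZO value with the leukocyte score as a covariate was -0.93 (adjusted p = 2.56e-07). The NZO library with the highest Slc30a8 (16496) had the lowest acinar sum of its strain, 9979 TPM against 68354 to 122737 TPM in the other 3. The part of this difference in the NZO result was not tested beyond the acinar covariate, with which the NZO value was -1.002 (adjusted p = 1.01e-07).

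Of the transporters that load zinc in the early secretory pathway, Slc30a5 (chromosome 13, 100802648 to 100833427, minus strand) was highest in PWK and lowest in NOD. The 5 PWK libraries had 2144, 2158, 2206, 2220 and 2255 normalized counts and lay above every NOD library (1383 to 1760, median 1525). The log2 fold change was 0.30 in PWK (SE 0.08, adjusted p = 0.0018) and -0.28 in NOD (SE 0.06, adjusted p = 7.16e-05). Slc30a5 was also lower in B6 (-0.14, SE 0.05, adjusted p = 0.0103), a call lost in 2 of 25 alternatives, with adjusted p-values up to 0.221. Its higher level in AJ (0.12, SE 0.05, adjusted p = 0.0478) was lost in 12 of 25 alternatives, with adjusted p-values up to 0.273. Among these were the fits without any one of replicates 1, 2 and 3 of NZO and replicates 2, 3 and 5 of PWK (adjusted p from 0.0503 to 0.0602), without the 10 NOD libraries (adjusted p = 0.216), and with the acinar (adjusted p = 0.158) and beta cell (adjusted p = 0.118) covariates. In AJ, B6, CAST and WSB the libraries numbered from 34 to 65 had a higher mean of Slc30a5 than those numbered up to 32, for example 2175 ± 115 (SD, n = 6) against 1824 ± 177 (SD, n = 8) in AJ and 1935 ± 198 (SD, n = 9) against 1733 ± 228 (SD, n = 7) in WSB. With this range in a fit of those 4 strains, the strain effect of Slc30a5 passed the test.

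Slc30a7 (chromosome 3, 115938973 to 116007406, minus strand) varied the least. Its only called contrast was NOD, where the libraries ran from 1081 (median 1178) to 1617 normalized counts and the log2 fold change was -0.18 (SE 0.06, adjusted p = 0.00624). That call was lost with the leukocyte covariate (adjusted p = 0.219), with the beta cell covariate (adjusted p = 0.137) and on log2(TPM + 1) (adjusted p = 0.39). These 3 fits called 15.9%, 45.4% and 49.1% of all genes in NOD, where the main fit called 65.3%. The NOD value lay between -0.11 and -0.22 in all alternatives run. Within CAST Slc30a7 was lower where the acinar score was higher (r = -0.65, adjusted permutation p = 0.0395, rho = -0.66, adjusted permutation p = 0.0424, n = 14, r = -0.57 without the 2 farthest libraries), while its CAST contrast was not called. The 2 scales placed PWK differently. By normalized counts PWK (1392 ± 93.6, SD, n = 5) lay in the middle of the strains, between NOD at 1254 ± 171 and NZO at 1548 ± 189. By TPM it was the highest, at 16.6 TPM ± 5.12, while the other strain means ran from 8.60 to 10.1 TPM. The effective length that RSEM gave to Slc30a7, by which TPM divides, averaged 3982 bases in PWK and from 5580 to 7277 bases in the other strains. Which transcripts carried this difference was not tested. The reads were quantified on mm10, and the part of this reference in the PWK lengths and counts was not tested either. The effective length of Slc30a8 was 1872 bases on average in all 8 strains.

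**Figure D4:**
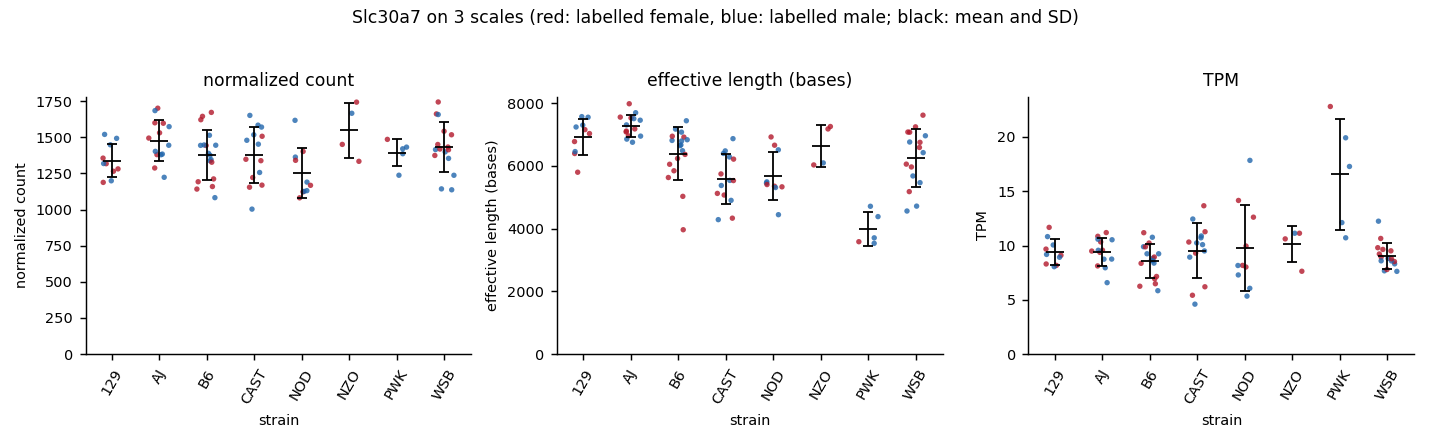
Slc30a7 by strain as normalized count, as effective length in bases and as TPM (vertical axes, linear, from 0). Points are libraries (red labelled female, blue labelled male) with the mean and SD in black. PWK is in the middle of the counts (mean 1392), lowest in effective length (mean 3982 bases) and highest in TPM (mean 16.6).

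Of the importers, Slc39a6 (chromosome 18, 24579881 to 24603817, minus strand) had the sharpest strain difference. The 5 PWK libraries had 1770, 1736, 1807, 1493 and 1796 normalized counts, and 4 of them lay above the highest library of the other strains (1565, in CAST). The log2 fold change in PWK was 0.54 (SE 0.05, adjusted p = 2.02e-14), and it lay between 0.52 and 0.64 in all alternatives run. The strain mean was lowest in 129 (1033 ± 31.99, SD, n = 10), where libraries ran from 970 (median 1037) to 1094, with a log2 fold change of -0.29 (SE 0.04, adjusted p = 3.89e-08), a call lost on log2(TPM + 1) (-0.07, adjusted p = 0.612). NZO (-0.21, SE 0.07) and NOD (-0.21, SE 0.04) were lower as well. The NZO call was lost without replicate 3 of NZO (adjusted p = 0.0509), with the beta cell covariate (adjusted p = 0.0526) and on log2(TPM + 1) (-0.20, adjusted p = 0.543), and the NOD call with the leukocyte covariate (-0.09, adjusted p = 0.457). On log2(TPM + 1) 15.9% of all genes were called in NZO, where the main fit called 34.2%. The NZO value of Slc39a6 lay between -0.15 and -0.25 in all alternatives run. CAST (0.13, SE 0.04) and AJ (0.12, SE 0.04) were higher and B6 (-0.09, SE 0.03) lower, and these were the smallest of its called differences. Inside these strains Slc39a6 was lower where the acinar score was higher in CAST (r = -0.68, adjusted permutation p = 0.0275, rho = -0.67, adjusted permutation p = 0.04, n = 14) and B6 (r = -0.63, adjusted permutation p = 0.0141, n = 18), although rho did not pass in B6 (-0.54, adjusted permutation p = 0.0743), and where the leukocyte score was higher in AJ (r = -0.72, adjusted permutation p = 0.0144, rho = -0.68, adjusted permutation p = 0.0348, n = 14). Without the 2 farthest libraries r was -0.62, -0.62 and -0.63. The AJ call was lost in 4 of 25 alternatives and the B6 call in 6 of 25. The AJ call was lost, among others, with the acinar covariate (0.02, adjusted p = 0.681) and the beta cell covariate (0.07, adjusted p = 0.101), and the B6 call with TMM normalization (-0.07, adjusted p = 0.0857), median-ratio size factors, edgeR's filterByExpr, DESeq2 and log2(TPM + 1) (adjusted p from 0.0528 to 0.0548 in the last 4). On log2(TPM + 1) the CAST value turned to -0.09 while the median of all genes there was -0.18. Slc39a6 overlaps Elp2 on the opposite strand, which had 24.8 TPM on average against 14.0 TPM for Slc39a6, and whether the counting used strand is not given in the sources used here.

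Slc39a7 (chromosome 17, 34028269 to 34031682, minus strand), the importer of the endoplasmic reticulum, was lowest in NOD. Its libraries ran there from 3612 (median 4754) to 5714 normalized counts, with a log2 fold change of -0.31 (SE 0.06, adjusted p = 1.88e-05). Within NOD it ran opposite to the leukocyte score, as Slc30a8 did (r = -0.84, permutation p = 0.00262, adjusted p = 0.0141, rho = -0.85, permutation p = 0.00257, adjusted p = 0.0138, n = 10, r = -0.78 without the 2 farthest libraries). With that score as a covariate the NOD value was -0.07 (adjusted p = 0.709). With the acinar score r was 0.74 (adjusted permutation p = 0.0649) and rho 0.76 (adjusted permutation p = 0.0507), and neither passed the test. Without the 2 farthest libraries that r was 0.91. B6 was lower (-0.15, SE 0.05, adjusted p = 0.0108), and CAST (0.20, SE 0.05, adjusted p = 0.00134) and AJ (0.17, SE 0.05, adjusted p = 0.00631) were higher, although on log2(TPM + 1) the CAST value was -0.00035, where the median of all genes was -0.18. The ranges of neighbouring strains overlapped throughout, and 0 of the 7 steps in the order of means exceeded the larger SD. The AJ call was lost in 5 of 25 alternatives, among them the acinar covariate (0.10, adjusted p = 0.24) and the beta cell covariate (0.11, adjusted p = 0.118), and the CAST call with the leukocyte covariate (0.13, adjusted p = 0.0628). A processed transcript on the same strand overlaps Slc39a7 and held 19.6% as many normalized counts.

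Slc39a14 (chromosome 14, 70303469 to 70351425, minus strand), an importer of zinc, iron and manganese, was lowest in WSB and highest in PWK. WSB libraries ran from 518 (median 659) to 875 normalized counts, and the log2 fold change was -0.41 (SE 0.07, adjusted p = 2.11e-06). The WSB value lay between -0.32 and -0.54 in all alternatives run and passed the test in each. The 5 PWK libraries lay between 939 and 1452, and the PWK value of 0.34 (SE 0.12, adjusted p = 0.0131) was lost without replicate 4 (0.23, adjusted p = 0.151), the PWK library with the highest acinar sum (336162 TPM). AJ was lower (-0.28, SE 0.08, adjusted p = 0.00133) and CAST higher (0.20, SE 0.08, adjusted p = 0.0202). The AJ call was lost in 3 of 25 alternatives (adjusted p up to 0.0734) and the CAST call in 4 of 25 (up to 0.961). The acinar sum averaged 8651 TPM in AJ and 136562 TPM in CAST. It averaged 145078 TPM in NOD and 31216 TPM in 129, where Slc39a14 had 0.01 and 0.10 and did not pass the test. In AJ the libraries numbered up to 32 had 636 to 778 normalized counts and those numbered from 34 to 65 had 780 to 852, with no overlap. With the acinar score as a covariate the AJ value turned to 0.15 (adjusted p = 0.0618), that of CAST was 0.02 (adjusted p = 0.824), that of PWK was 0.19 (adjusted p = 0.0495) and that of WSB was -0.48 (adjusted p = 1.02e-12). On log2(TPM + 1) the CAST value was -0.0033. Within strains, Slc39a14 rose with the acinar score in B6 (r = 0.70), CAST (r = 0.73), NOD (r = 0.94) and WSB (r = 0.84), with Pearson's adjusted permutation p-values from 0.00017 to 0.0141, and rho was 0.66, 0.76, 0.96 and 0.87 with adjusted permutation p-values from 0.00051 to 0.016. In 129 (r = 0.23) and AJ (r = -0.15) it did not pass the test. With the leukocyte score r passed in B6 (0.65, adjusted permutation p = 0.0233, r = 0.37 without the 2 farthest libraries) but rho did not (0.24, adjusted permutation p = 0.589), and in NOD rho passed (-0.78, adjusted permutation p = 0.0398) but r did not (-0.66, adjusted permutation p = 0.0984).

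Mt1 (chromosome 8, 94179082 to 94180327, plus strand) and Mt2 (94172664 to 94173568, plus strand) are neighbours, and they moved together from library to library. After the strain means were removed their log2 levels correlated with r = 0.96 over the 91 libraries, the closest pair of the 28 pairs among the 8 genes. In each of 6 strains the correlation was positive, from 0.87 in WSB to 0.996 in NOD (Pearson, adjusted permutation p = 0.00017 to 0.000255, n = 10 to 18), with rho from 0.81 in WSB to 1 in NOD (adjusted permutation p = 0.000255 to 0.00322). Mt1 exceeded Mt2 in 91 of 91 libraries, by 1.53-fold ± 0.232 (SD) in TPM. Because they move together, their upstream sequences are shown, with matches to the core of the metal response element, the site through which Mtf1 acts, in capitals. They are the 250 bases before the start in RefSeq on GRCm38.p6, plus strand, 5′ to 3′, at chr8:94178839-94179088 for Mt1 and chr8:94172368-94172617 for Mt2.
Mt1: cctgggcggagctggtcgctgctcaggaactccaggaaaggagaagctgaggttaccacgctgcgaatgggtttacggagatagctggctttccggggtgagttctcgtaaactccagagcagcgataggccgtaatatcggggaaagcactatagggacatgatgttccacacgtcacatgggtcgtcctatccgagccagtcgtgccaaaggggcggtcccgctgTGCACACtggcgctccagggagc
Mt2: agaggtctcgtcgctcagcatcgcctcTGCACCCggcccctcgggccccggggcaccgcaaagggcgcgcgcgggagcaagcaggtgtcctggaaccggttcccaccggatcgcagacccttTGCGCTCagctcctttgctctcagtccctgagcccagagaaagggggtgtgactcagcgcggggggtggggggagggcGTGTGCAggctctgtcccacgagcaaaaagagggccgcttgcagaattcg
The core was searched as TGCACNC and TGCGCNC on both strands. Mt1 has 1 match, which begins 23 bases before the start, and Mt2 has 3 matches, which begin 223, 128 and 50 bases before it. The Mt1 window ends at 94179088, inside the gene span given above from 94179082. The Mt2 window ends at 94172617, before its span from 94172664. The 2 windows are thus not placed alike on the gene spans, and the counts describe these windows only. Of the 32851 promoters in the table, 21.41% hold at least 1 match in these 250 bases and 1.26% hold at least 3. With the 50 bases after the start included, Mt1 had 3 matches and Mt2 had 4, and 1.97% of promoters had at least 3 and 0.52% at least 4 in the same 300 bases. Slc30a5 had 1 match in its 250 bases, and Slc30a7 and Slc39a7 had 0. The matches are letters in the reference, and no binding was measured.

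Mt1 and Mt2 were high in WSB and low in PWK and 129. WSB libraries ran from 8345 (median 13161) to 26004 normalized counts for Mt1 and from 4225 (median 8836) to 14063 for Mt2. The 5 PWK libraries had 2756, 1941, 3045, 6917 and 2834 normalized counts of Mt2, and those of 129 ran from 1894 (median 4041) to 6877. Ranges overlapped between all neighbouring strains, and 0 of the 7 steps in the order of means exceeded the larger SD for either gene. WSB was higher for Mt2 by a log2 fold change of 0.64 (SE 0.20, adjusted p = 0.00428) and for Mt1 by 0.49 (SE 0.18, adjusted p = 0.0168). Mt2 was lower in PWK (-0.88, SE 0.37, adjusted p = 0.0458) and in 129 (-0.80, SE 0.27, adjusted p = 0.0103), where Mt1 had -0.75 (SE 0.33) and -0.53 (SE 0.24) and did not pass the test. Mt1 was higher in B6 (0.42, SE 0.18, adjusted p = 0.0386), a call lost in 10 of 25 alternatives, where the value went down to 0.086 and the adjusted p up to 0.688. Among these were the fits without replicate 1 or replicate 4 of NZO (adjusted p = 0.0563 and 0.0519) and with the acinar covariate (0.21, adjusted p = 0.101). The PWK call of Mt2 was lost in 11 of 23 alternatives, among them the fits without any one of replicates 2 and 3 of NZO and replicates 1, 2, 3 and 5 of PWK, with adjusted p-values from 0.0536 to 0.148. The PWK value of Mt2 lay between -0.69 and -1.30 in all 23. Without replicate 4 of PWK, which is above the other 4, its adjusted p was 0.0102. The WSB call was lost in 5 of 25 alternatives for Mt1 and in 4 of 25 for Mt2, among them both fits of AJ, B6, CAST and WSB alone (adjusted p = 0.239 and 0.343 for Mt1, 0.0757 and 0.273 for Mt2) and, for Mt1, the beta cell covariate (adjusted p = 0.0601). With the leukocyte covariate the WSB values were 0.21 for Mt1 (adjusted p = 0.432) and 0.31 for Mt2 (adjusted p = 0.269), and with the acinar covariate the 129 value of Mt2 was -0.34 (adjusted p = 0.148). An antisense gene overlaps Mt2 and held 6.52% as many normalized counts.

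Over all 91 libraries Mt1 ran from 2177 to 31502 normalized counts, a 14.5-fold range, and Mt2 had a 17.1-fold range. For comparison the range was 7.40-fold for Slc30a8 and 1.74-fold for Slc30a7. Within strains, part of this spread ran along the acinar markers. Mt1 correlated with the acinar score in 5 of 6 strains, with r = 0.93 in B6 (n = 18, adjusted permutation p = 0.00017), 0.91 in 129 (n = 10, adjusted p = 0.00357 by permutation), 0.87 in NOD (n = 10, adjusted p = 0.0122 by permutation), 0.82 in CAST (n = 14, adjusted p = 0.00334 by permutation) and 0.75 in WSB (n = 16, adjusted p = 0.00605 by permutation). The values of rho were 0.93, 0.93, 0.79, 0.89 and 0.84, with adjusted permutation p-values from 0.000255 to 0.0348. Without the 2 libraries farthest from the median score, r stayed between 0.68 and 0.91. In AJ, where acinar markers were lowest, r was 0.25 and did not pass the test. For Mt2 the correlation passed in 129, B6, CAST and NOD, with r from 0.71 to 0.88, and in WSB by Spearman alone (rho = 0.70, adjusted permutation p = 0.0158, r = 0.57, adjusted permutation p = 0.0649). Within the number ranges of B6, CAST and WSB, r of Mt1 with the acinar score was positive in 6 of 6 ranges, from 0.58 to 0.99, and passed in 5 (exact permutation test for up to 9 libraries, 24 relations). In AJ it was 0.25 and 0.35 in the 2 ranges.

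**Figure D5:**
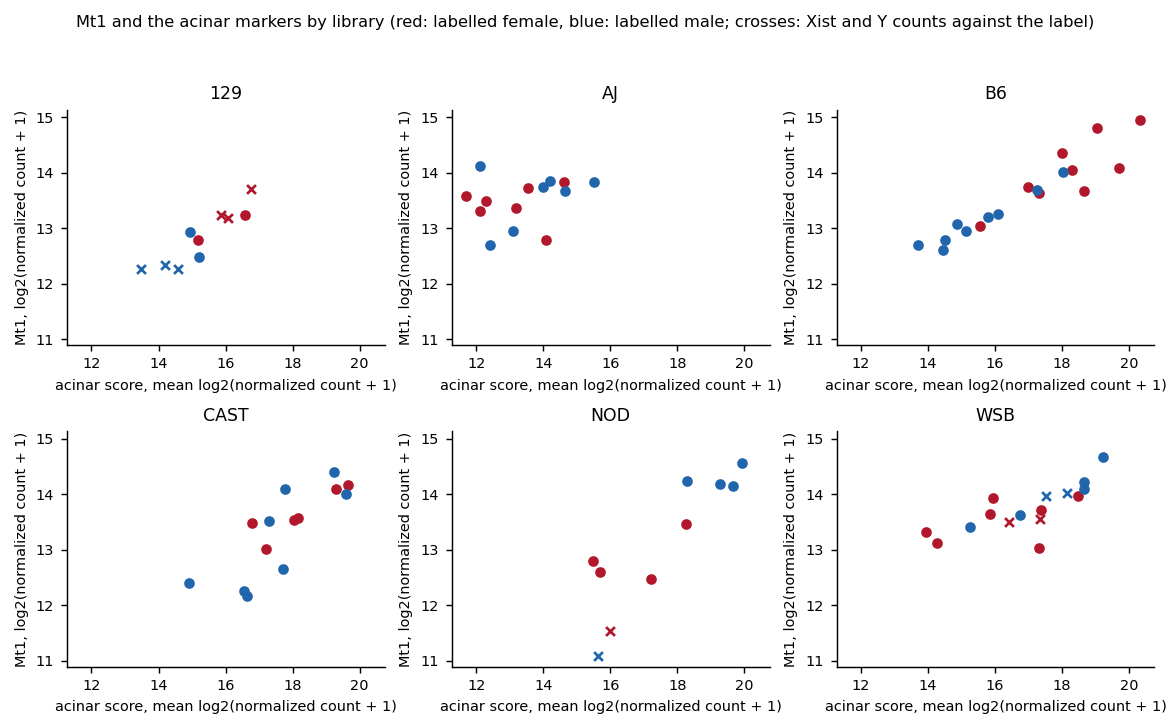
Mt1 as log2(normalized count + 1) against the acinar score, the mean log2(normalized count + 1) of 11 acinar markers, in the libraries of 6 strains. Red is labelled female, blue labelled male, and crosses are libraries whose Xist and Y-linked counts go against the label. Mt1 climbs with the score in every strain shown but AJ (r = 0.25).

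AJ also differed by number range, in the direction opposite to that of Slc39a14. The 8 AJ libraries numbered up to 32 had 7785 to 12593 normalized counts of Mt2 and the 6 numbered from 34 to 65 had 2667 to 7739, with no overlap. For Mt1 the means in AJ were 14079 ± 1907 (SD) and 9216 ± 2477 (SD). The mean of Mt2 was also lower in the higher-numbered libraries of B6 (6031 ± 3212 against 9522 ± 3622), CAST (6595 ± 4077 against 8542 ± 3356) and WSB (8423 ± 3156 against 9579 ± 967), with overlapping ranges. That of Mt1 went the same way in B6 (12622 ± 7746 against 15262 ± 6842) and CAST (11428 ± 6748 against 12527 ± 5049) and the other way in WSB (14629 ± 5685 against 13778 ± 2372), also with overlapping ranges. What the number range stands for is not given in the labels, and its part in the strain results of the metallothioneins was not tested between the sets of strains that do not share numbers. In the 4 strains that do, Mt1 and Mt2 had no strain effect with the number range in the fit (adjusted p = 0.424 and 0.26) or without it (adjusted p = 0.578 and 0.639).

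Sex was compared over all strains and within them. None of the 8 genes differed between the sexes as labelled at an adjusted p under 0.05, where 4.01% of the genes tested did, and 1 of the 8 did at an unadjusted p under 0.05. DESeq2 and limma-voom called 0 as well. That gene was Slc39a7, with a log2 difference of male minus female of 0.11 (SE 0.04, adjusted p = 0.0963). Without the 12 libraries whose counts go against the label it was 0.14 and was called (adjusted p = 0.00951). The sex difference of Mt1 was -0.08 (SE 0.14) and that of Mt2 -0.06 (SE 0.16).

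The sex difference itself varied with strain for Mt1 (adjusted p = 0.00212), Mt2 (adjusted p = 0.00589) and Slc30a5 (adjusted p = 0.0497) in a test of the interaction over 6 strains (all but NZO and PWK, which have 1 library of 1 sex), which called 5.90% of the genes tested. This share was 27.5% without replicate 7 of NOD, a library against its sex label, and 17.6% without all 12 such libraries. Mt1 was higher in labelled females of B6, at 18112 ± 7689 (SD, n = 9) normalized counts against 9479 ± 3360 (SD, n = 9) in males, and of 129, at 9808 ± 2294 (SD, n = 5) against 5700 ± 1231 (SD, n = 5). It was higher in labelled males of NOD, at 16530 ± 8401 (SD, n = 5) against 6635 ± 3010 (SD, n = 5), and of WSB, at 16987 ± 4885 (SD, n = 7) against 12133 ± 2720 (SD, n = 9). These ranges overlapped between the sexes in all 4 strains. Without the libraries against their labels they did not overlap in NOD, where 4 males ran from 18116 to 24368 and 4 females from 5694 to 11262. In 129, where 6 of the 10 libraries go against their labels, the other 4 gave means of 8353 in females (n = 2) and 6765 in males (n = 2), with overlapping ranges. In WSB 4 of the 16 libraries go against their labels, and means without them are not given here. The acinar markers moved in the same direction. Their sum averaged 172700 TPM in females and 40590 TPM in males of B6, 47038 and 15394 TPM in 129, 75763 and 214393 TPM in NOD, and 62896 and 134404 TPM in WSB. In NOD the leukocyte markers differed by sex too, with a mean sum of 789 TPM in females and 495 TPM in males (666 and 92.5 TPM without the libraries against their labels). Within NOD, Mt1 (r = -0.84, adjusted permutation p = 0.0133, rho = -0.90, adjusted permutation p = 0.00491, r = -0.91 without the 2 farthest libraries) and Mt2 (r = -0.86, adjusted permutation p = 0.0115, rho = -0.90, adjusted permutation p = 0.00491, r = -0.91 without the 2 farthest) ran opposite to the leukocyte score. Over the NOD libraries the acinar and leukocyte scores ran against each other. They were 15.6 and 11.5 in replicate 7, for example, and 19.3 and 6.35 in replicate 4. The relations of Mt1 and Mt2 with the 2 scores in NOD are therefore not independent. The part of the leukocytes in the sex difference within NOD was not tested. With the acinar score in the fit, the interaction of Mt1 had an adjusted p of 0.719, that of Mt2 0.602 and that of Slc30a5 0.131, where 0.408% of all genes tested were called. Without the 12 libraries that go against their labels, Mt1 (adjusted p = 0.00134) and Mt2 (adjusted p = 0.0045) were called, Slc30a5 was not (adjusted p = 0.0953), and Slc39a14 was (adjusted p = 0.0443, against 0.122 with all libraries). Leaving out replicate 7 of NOD alone gave Slc39a14 an adjusted p of 0.00717. The call of Slc30a5 was lost in 14 of the 20 fits that leave out 1 library of 129 or NOD, namely replicates 2 to 9 of 129 and replicates 2, 3, 4, 5, 9 and 10 of NOD, with adjusted p-values up to 0.0701. On log2(TPM + 1) Slc39a6 (adjusted p = 0.0214) and Slc39a7 (adjusted p = 0.00761) were called as well, where 52.9% of all genes were.

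The other genes of zinc handling were taken as a list of 23 (11 further Slc39 genes, 7 further Slc30 genes, Mt3, Mt4, Mtf1, Tmem163 and Gpr39), of which 19 passed the filters and 4 (Slc30a3, Slc30a10, Slc39a12 and Mt4) did not, with means between 0 and 0.0305 TPM. All 19 had a strain effect, as 97.4% of all genes did, and 81 of their 152 strain contrasts were called, 43 higher and 38 lower, close to the 52.2% of all genes called on average in a strain contrast. The highest were Tmem163, a zinc-binding protein of vesicles, at 51.8 TPM ± 17.3 (SD, n = 91), Slc39a9 at 26.8 TPM ± 5.43 and Slc39a1 at 23.5 TPM ± 7.09. Tmem163 was lower in NOD (-0.83, SE 0.07), NZO (-0.45, SE 0.10) and CAST (-0.26, SE 0.06), and higher in AJ (0.59, SE 0.05), WSB (0.41, SE 0.05), PWK (0.29, SE 0.09) and B6 (0.20, SE 0.05). Slc39a4, the intestinal zinc importer, was higher in NZO (2.92, SE 0.42) and NOD (2.61, SE 0.32) and lower in PWK (-2.15, SE 0.70) and CAST (-0.90, SE 0.39), from a mean level of 0.576 TPM. Its NZO libraries had 62.4, 26.8, 54.9 and 221 normalized counts, so 1 of 4 was far above the others. Mt3, a metallothionein known from brain, was higher in NZO (2.15, SE 0.21), WSB (1.74, SE 0.13) and NOD (0.52, SE 0.17) and lower in CAST (-1.72, SE 0.18), B6 (-1.22, SE 0.15), PWK (-0.90, SE 0.26) and 129 (-0.57, SE 0.18). The same NZO library, replicate 4, had 350 normalized counts of Mt3 and the other 3 had 54.5 to 88.7. Slc30a2 and Slc39a5, transporters known from the exocrine pancreas, were lowest where acinar markers were lowest, in AJ (-3.55, SE 0.60, and -3.68, SE 0.58) and 129 (-1.97, SE 0.62, and -1.83, SE 0.59), and higher in CAST (1.74, SE 0.40, and 1.65, SE 0.39) and NOD (1.67, SE 0.46, and 1.53, SE 0.46). Slc39a5 was also higher in B6 (1.17, SE 0.40). Their relation to the acinar markers was not tested. Mtf1 itself was lower in NZO (-0.28, SE 0.06) and higher in PWK (0.16, SE 0.06), CAST (0.14, SE 0.04) and B6 (0.10, SE 0.03). For sex 2 of the 19 were called, Slc39a13 (male minus female 0.12) and Tmem163 (0.17), both named after their values were seen, where 4.01% of all genes were, and 6 had a strain by sex interaction, where 5.90% of all genes did.

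Finally, the genes whose library-to-library deviations within strains were most like each member were found over the 91 libraries, as a description. For Slc30a8 they were Tmem215 (r = 0.86), Hadh, a mitochondrial enzyme of fatty acid oxidation (r = 0.83), and Map2 (r = 0.83). For Slc30a5 they were Tmem167 (r = 0.85), Rnf181 and Cflar (both r = 0.82), and for Slc30a7 Stt3a, a subunit of the oligosaccharyltransferase (r = 0.78), Psme4 (r = 0.75) and Ostc (r = 0.74). Those of Slc39a7 were Tmed9, a cargo receptor of the early secretory pathway, and Chpf (both r = 0.79) and Ckap4 (r = 0.77). Slc39a6 had Akap11 (r = 0.75), Mbd5 (r = 0.72) and Pafah1b1 (r = 0.71), and Slc39a14 had Larp1, Mknk1 and Sel1l (all r = 0.85). After each other, Mt1 was most like Gcat and Ccdc85c (r = 0.85 and 0.84) and Mt2 like Lzts3 and Rhou (r = 0.82 and 0.81). Among the members themselves, Slc30a5 and Slc30a7 correlated with r = 0.70 and Slc39a14 and Mt1 with r = 0.54, while the highest r of Slc30a8 with any of them was 0.37 (Slc39a6). The libraries share depth, cell mixture and number range, which enter all of these values.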

How the data were processed

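Each of the 91 files is 1 library of islet RNA. The authors quantified reads with RSEM on mm10 with GENCODE annotation (the RSEM version is not given in the sources used here) and deposited, per gene, the expected count, TPM and an effective length. Expected counts were rounded to whole numbers, genes were filtered by the study's criteria (autosomes 1 to 19 and X, protein-coding only, the 10% with the lowest variance removed, non-zero in 85% of libraries), and upper-quartile normalization was used. Gene types and positions came from GENCODE M21, a later release than the vM18 of the study, and the number of genes left is larger than the study's, so the filter is no exact repeat of it. edgeR 4.0.16 (R 4.3.3) fitted strain and sex with a quasi-likelihood test and Benjamini-Hochberg adjustment over all 15204 genes tested, with each strain set against the unweighted mean of the other 7 and a strain by sex interaction in 6 strains. A difference was called at an adjusted p under 0.05. Marker scores are mean log2(normalized count + 1). Relations within strains used 100000 permutations, or an exact permutation test under 10 libraries in a number range, and 1e-05 is the smallest p that 100000 permutations can give. TPM was used for levels between genes and, as log2(TPM + 1), with limma 3.58.1 as an alternative. Other alternatives were TMM and median-ratio scaling, other gene filters, DESeq2 1.42.0, limma-voom, marker covariates, sums per sample, left-out libraries and number ranges. The fits without the number range and without NOD were added after seeing the data. The scripts were tested on simulated data. Promoter sequences are from RefSeq on GRCm38.p6, and 5 of the 8 genes were in that table (not Slc30a8, Slc39a6 or Slc39a14).

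All 8 members are named. Of the other zinc genes, those with the 2 largest called changes in each direction per strain, and any for its mean TPM, may be named, as may the 3 genes most like each member. The members and lists were chosen with earlier results of these data known. No molecular identifiers were counted, so floors cover counting error only.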

Additional observations from a re-analysis of the deposited data

Results flagged for a closer look

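In groups of 4 to 10 libraries, 32 combinations of gene and strain were examined for a library far from the others by Dixon's criterion, and 4 stood out, where chance flags about 1 in 20 groups. Replicate 4 of PWK stood apart in 3 of them, with the lowest Slc39a6 of its strain (1493 normalized counts) and the highest Mt1 (12208) and Mt2 (6917). This library also had the highest acinar marker sum of PWK (336162 TPM, against 56989 to 121750 TPM in the other 4), and the part of that in these values was not tested. Replicate 1 of NZO had the lowest Slc39a14 of its strain (813 normalized counts) and the lowest acinar sum (9979 TPM).

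The difference between the sexes as labelled varied with strain, by a test of the interaction itself, for Mt1 (adjusted p = 0.00212), Mt2 (adjusted p = 0.00589) and Slc30a5 (adjusted p = 0.0497). With the acinar marker score in the fit these were 0.719, 0.602 and 0.131.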

How the results depend on the processing

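Of the 8 genes with a strain effect, 5 had it in sums of libraries per sample and 5 in the fits of AJ, B6, CAST and WSB with and without the number range. Of the 64 strain contrasts 31 were called. In sums per sample 19 were called, 17 of them among the 31, and the share of all genes called per contrast ran from 25.6% to 55.6%, where it was 34.2% to 65.3% over libraries. With the acinar covariate 31 were called (23 of the first 31), where 36.6% to 65.1% of all genes were. The leukocyte covariate gave 22 (20 of the 31), where 15.9% to 50.9% of all genes were called. The beta cell covariate gave 24 (22 of the 31), where 34.7% to 56.4% of all genes were called. On log2(TPM + 1) 29 were called (20 of the 31), where 15.9% to 55.6% of all genes were. The fits of AJ, B6, CAST and WSB hold 32 contrasts, each against the other 3 strains, of which 17 are among the 31. With the number range 12 were called (11 of the 17), and without it 11 (10 of the 17), where 53.4% to 60.9% and 50.8% to 56.9% of all genes were called per contrast. With an added log2 fold change of at least 1, 0 of the 31 were left. The sex effect was called for 1 gene without the 12 libraries against their labels. The interaction was called for 0 of the 8 genes with the acinar covariate, where 0.408% of all genes were called, and for 5 on log2(TPM + 1), where 52.9% were. The direction turned on log2(TPM + 1) in CAST for Slc39a6 (-0.0919), Slc39a7 (-0.00035) and Slc39a14 (-0.0033), with the acinar covariate in AJ for Slc39a14 (0.15), and for Slc30a8 in AJ against 3 strains with (-0.0408) and without (-0.0350) the number range. The cause was not tested. No paired analysis was possible because the library numbers were not given by the labels as pairs across strains. Depth did not limit these genes. The smallest groups were NZO (4 libraries) and PWK (5 libraries).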
